A study of Homo sapiens with 7 samples.

Results

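The daTSSs described here are downstream antisense transcription start sites called from about 0.33 to 0.53 kb downstream of their gene TSS, a range 200 nts wide that is referred to below as the second distance peak. They were selected on the measured gene TSS-daTSS distance, read on the gene strand between a gene TSS and the daTSS with the same identifier. They number 757 of the 2956 daTSSs (25.6%). The other 2199 form 4 classes by distance, namely 317 within 200 nts of the gene TSS, 455 in the first distance peak between there and the second, 979 from the second peak to 1000 nts (the farther class), and 448 beyond 1000 nts (the distant class). The calls come from Start-seq, which sequences short capped RNA from nuclei so that the 5′ end of each read marks a TSS at a single nucleotide. The cells are T-47D, a human line from a luminal breast cancer, and the study used its A1-2 subline. Transgenes in that subline drive high levels of rat glucocorticoid receptor and a luciferase reporter from a mouse mammary tumor virus promoter. All cells were grown in 10% FBS and then for at least 24 hours in 5% charcoal dextran-treated serum. There is 1 growth condition, with no treated group. The calls come from 1 Start-seq library, replicate 1. Expression was given by the authors as 1 FPKM per gene, an abundance scaled to transcript length and library size, from 3 merged RNA-seq replicates. No difference between groups of daTSSs therefore has a replicate error or a test. The 95% intervals of shares below are exact Clopper-Pearson intervals, and those of medians are set by ranks of the values over calls. Both cover the calls of 1 library only, and the read depth behind a call is unknown.

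RNA polymerase II initiates in both directions at many mammalian promoters. A uaTSS gives rise to RNA that runs away from the gene on the strand opposite to it. A daTSS lies downstream of the gene TSS, usually inside the gene. Its RNA runs back toward the gene TSS, so that the polymerases it launches converge with those moving into the gene. Most such antisense RNAs are short-lived and are rarely seen in mature RNA.

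Sequences at the daTSSs of 7 abundantly expressed genes are shown because they let the initiation site be read directly. Each is given 5′ to 3′ on the antisense strand, which is the strand of the daTSS, from hg19. The capitals mark the bases at positions -1 and +1, and the second capital is the called start.
RPS24, chr10:79794051-79794110, minus strand: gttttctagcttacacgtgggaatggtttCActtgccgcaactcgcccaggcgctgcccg
RPL35, chr9:127623790-127623849, plus strand: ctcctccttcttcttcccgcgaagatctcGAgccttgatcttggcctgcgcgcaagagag
COX8A, chr11:63742524-63742583, minus strand: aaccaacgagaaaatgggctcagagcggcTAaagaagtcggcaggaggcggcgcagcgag
P4HB, chr17:79817915-79817944, plus strand: ggacactggcttgcTCtgtttgctcacaca
SSR2, chr1:155990243-155990302, plus strand: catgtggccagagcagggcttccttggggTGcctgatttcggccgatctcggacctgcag
RPL29, chr3:52029445-52029474, plus strand: gttgtgtgtggtgtGGttcttggacttggc
TUBA1C, chr12:49659322-49659381, minus strand: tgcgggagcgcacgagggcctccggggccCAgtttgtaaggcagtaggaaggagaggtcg
The starts of RPS24 and TUBA1C read CA followed by any base and then T, the core of the initiator element that positions RNA polymerase II. Those of COX8A and SSR2 also have a pyrimidine followed by a purine, whereas RPL35, P4HB and RPL29 have neither pattern.

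The daTSSs of 3 further genes are shown because they coincide to the nucleotide with an annotated transcript start on the same strand.
CBR3, chr21:37507835-37507894, minus strand: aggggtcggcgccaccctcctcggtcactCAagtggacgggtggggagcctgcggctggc
SVIP, chr11:22850928-22850987, plus strand: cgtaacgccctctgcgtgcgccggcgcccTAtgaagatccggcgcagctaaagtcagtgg
ZSCAN31, chr6:28303409-28303468, plus strand: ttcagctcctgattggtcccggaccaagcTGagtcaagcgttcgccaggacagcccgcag
All 3 start with a pyrimidine followed by a purine.

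By distance, the daTSSs formed 2 broad maxima near the gene TSS. Counted in 25-nt bins, they fell from 117 just past 200 nts to 65 in the last bin before the second distance peak. They then rose to 83 in its first bin and to between 104 and 106 in each of the next 4, up to 450 nts. At the far side they fell to 66 in its last bin and 63 in the bin beyond. The decline was not smooth, since 88 daTSSs lay at 576 to 600 nts. Expressed as density, the second distance peak held 37.9 daTSSs per 10 nts, compared with 36.4 in the first distance peak and 20.6 in the farther class. These counts describe the measure that chose the daTSSs and are given without a test.

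Within the range, the median distance was 421 nts (quartiles 376 and 467). There was no single preferred position, since 193 distinct distances occurred and the commonest, 390 nts, was shared by 10 daTSSs. At the lower limit itself lay the daTSSs of STK40, VPS26A and ZNF580, and at the upper limit those of SNUPN, TSPAN3, GRN and TRMT1. Outside by 1 nt lay RACGAP1 and SLC30A4 below, and RNF130, ERLIN1, GANAB and CMAS above. The genes on either side of each limit overlapped in FPKM, with 2.57 at SLC30A4 and 119 at RACGAP1 outside the lower limit, and 14.2 at STK40 and 34.4 at VPS26A inside it. At the upper limit, FPKM was 13.5 at TRMT1 and 162 at GRN inside, and 20.0 at RNF130 and 251 at GANAB outside.

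An annotated gene was assigned to all 757 daTSSs, and they represent 754 distinct gene symbols. The genes lie on the plus strand in 401 cases. None of the daTSS positions was shared with another call. GSTO2, SLC12A4 and ZNF839 each contribute a pair of daTSSs at separate gene TSSs. At SLC12A4, which encodes a potassium-chloride cotransporter, the distances were 365 and 383 nts. At the zinc finger gene ZNF839 they were 363 and 513 nts, and at the glutathione transferase gene GSTO2 346 and 406 nts. Each such pair shares a gene and a single FPKM and is not a pair of independent observations.

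Genes of the second distance peak ranged from FPKM 0 to 664, with a median of 20.2 (quartiles 8.74 and 44.6, n = 756). The other daTSS genes had a median of 17.6 (quartiles 7.01 and 42.2, n = 2182). On the scale of log2(FPKM + 0.1), the medians differed by 0.19. Against the 7372 gene TSSs without a daTSS and with an FPKM value, whose median was 16.3, the difference was 0.30. Both differences are small beside the spread among genes. The median FPKM was 13.5 at genes with a daTSS within 200 nts, 15.7 in the first distance peak, 18.4 in the farther class and 23.8 in the distant class. The second distance peak ranks above the first 3 of these and below the distant class.

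Few of the genes had little mRNA. FPKM was under 1 at 21 of 756 genes (2.78%, interval 1.73% to 4.21%), compared with 3.85% of the other daTSS genes and 3.57% of all daTSS genes. An FPKM of 100 or more was found at 64 genes (8.47%), compared with 9.67% of the other daTSS genes. Both shares are close to those of the other daTSS genes. At gene TSSs without a daTSS, FPKM was under 1 at 6.99% (interval 6.41% to 7.59%) and 100 or more at 8.42%. Within the range, the median FPKM was 18.6, 21.1, 21.2 and 19.0 in successive stretches of 50 nts.

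The highest FPKM was 664 at RPS24, a component of the small ribosomal subunit, whose daTSS lay 459 nts downstream. RPL35, of the large subunit, had an FPKM of 617 and a daTSS at 390 nts, and RPL29 an FPKM of 381 and a daTSS at 491 nts. COX8A, a subunit of cytochrome c oxidase, had 600 and a daTSS at 461 nts. P4HB, the protein disulfide isomerase of the endoplasmic reticulum, had an FPKM of 432 (508 nts), and SSR2, of the translocon-associated complex, 389 (478 nts). GAPDH, a glycolytic enzyme, had 390 (456 nts), and the tubulin gene TUBA1C 374 (486 nts). FPKM was 347 at ATP5F1E (501 nts) and 336 at ATP5IF1 (381 nts), which encode a subunit and an inhibitor of the mitochondrial ATP synthase. The remaining genes among the 12 highest were APRT, which salvages adenine, at 343 (401 nts), and SYNGR2, a vesicle membrane protein gene, at 331 (422 nts). A uaTSS was absent at RPS24, GAPDH and SSR2 and present at the other 9, beside a share of 65.0% over the second distance peak.

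The lowest FPKM values above 0 were 0.0903 at ESR2, 0.115 at CCDC184 and 0.156 at PLSCR2. ESR2 encodes estrogen receptor beta, and its gene TSS had both a daTSS at 513 nts and a uaTSS at 718 nts, whereas CCDC184 and PLSCR2 had no uaTSS. CC2D2B, named after its value was seen, was listed at 0 with a daTSS at 454 nts. Each of these gene TSSs therefore had initiation calls on both strands, at genes with little or no mRNA. The CC2D2B daTSS lay 2 nts from the annotated start of the lncRNA ENTPD1-AS1. The CCDC184 daTSS lay outside the annotated transcripts of its gene.

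The steady-state RNA carries the epithelial markers of a luminal line. FPKM was 1142 at KRT8, 555 at KRT18, 936 at KRT19, 146 at EPCAM, 230 at CDH1, 360 at GATA3, 113 at FOXA1, 44.1 at ESR1 and 68.5 at PGR. The basal or mesenchymal genes KRT5, KRT14 and ZEB1 were listed at 0, TP63 had 0.517, VIM 0.864 and ACTA2 3.20.

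A uaTSS was called at 492 of the 757 gene TSSs of the second distance peak (65.0%, interval 61.5% to 68.4%). The share was 60.2% at the other daTSSs (58.1% to 62.2%) and 61.4% at all gene TSSs with a daTSS. The intervals overlap. By class, it was 65.6% within 200 nts, 60.4% in the first distance peak, 60.8% in the farther class and 54.7% in the distant class. Of these 4, only the interval of the distant class (49.9% to 59.4%) lies apart from that of the second distance peak. At gene TSSs without a daTSS the share was 49.8% (48.7% to 51.0%). Within the range it was 67.6%, 68.6%, 62.6% and 60.3% in successive stretches of 50 nts, with intervals that overlap.

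Where a uaTSS was called, it lay a median of 186.5 nts upstream of the gene TSS (quartiles 123 and 287, n = 492). At the other daTSSs the median was 211 nts (quartiles 135 and 349.5, n = 1323), and at gene TSSs without a daTSS it was 198 nts. The uaTSSs paired with the second distance peak were thus somewhat closer to the gene TSS, as were those paired with the first (189 nts). The median was 219 nts for daTSSs within 200 nts, 208 nts in the farther class and 257 nts in the distant class. Of the uaTSSs paired with the second distance peak, 47.6% lay 81 to 200 nts upstream, compared with 37.3% at the other daTSSs. Smaller shares lay between there and 400 nts (31.1% against 35.4%), beyond 400 nts (13.4% against 17.9%) and within 80 nts (7.93% against 9.37%). The span from uaTSS to daTSS had a median of 615 nts and ranged from 372 to 1394 nts.

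The extremes of uaTSS distance were chosen after their values were seen. The closest uaTSSs were at ZNF415 (3 nts), TUBGCP3 (6 nts), a gene of the gamma-tubulin complex, and LEPROTL1 (13 nts). The most distant were at HMGN4 (990 nts), which encodes a nucleosome-binding protein, COX14 (951 nts) and CCDC86 (906 nts). The daTSS distances at the shortest uaTSS distances, 424, 377 and 474 nts, overlap the range of 382 to 404 nts at the longest.

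Genes with both antisense calls had more mRNA than those with a daTSS alone. Among the daTSSs of the second distance peak, the median FPKM was 24.0 with a uaTSS (quartiles 11.5 and 53.5, n = 491) and 13.0 without one (5.07 and 31.1, n = 265). The difference was 0.88 on the log2(FPKM + 0.1) scale. The other daTSSs showed the same order, at 20.4 (n = 1319) and 13.2 (n = 863). Without a uaTSS, the second distance peak did not exceed the other daTSSs, and the difference of medians was -0.024.

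Exons and introns were read from annotated transcripts of each gene in 2 ways. Over all transcripts of the gene, 460 of the 757 daTSSs lay in introns and outside every exon (60.8%, interval 57.2% to 64.3%), 277 in an exon (36.6%) and 20 outside (2.64%). The intron share was 59.9% at the other daTSSs and 60.1% at all daTSSs with a gene. Among all positions at the same distances from 7416 gene TSSs without a daTSS, 61.6% were intronic by the same rule. The second distance peak was therefore close to its distance range as a whole.

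The other reading used the coding transcript that starts nearest the gene TSS, or the nearest of any type where none was coding. In that transcript, 586 daTSSs lay in an intron (77.4%, interval 74.3% to 80.3%), 140 in an exon (18.5%) and 31 outside. The share was 70.3% (68.3% to 72.2%) at the other daTSSs and 72.1% at all daTSSs with a gene. It rose along the distance classes, from 37.3% within 200 nts and 56.9% in the first distance peak to 80.2% in the farther class and 85.4% in the distant class. The interval of the second distance peak lies above those of the nearer classes and overlaps that of the farther class (77.6% to 82.7%). Over the same range at gene TSSs without a daTSS, 76.9% of positions were intronic.

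**Figure D1:**
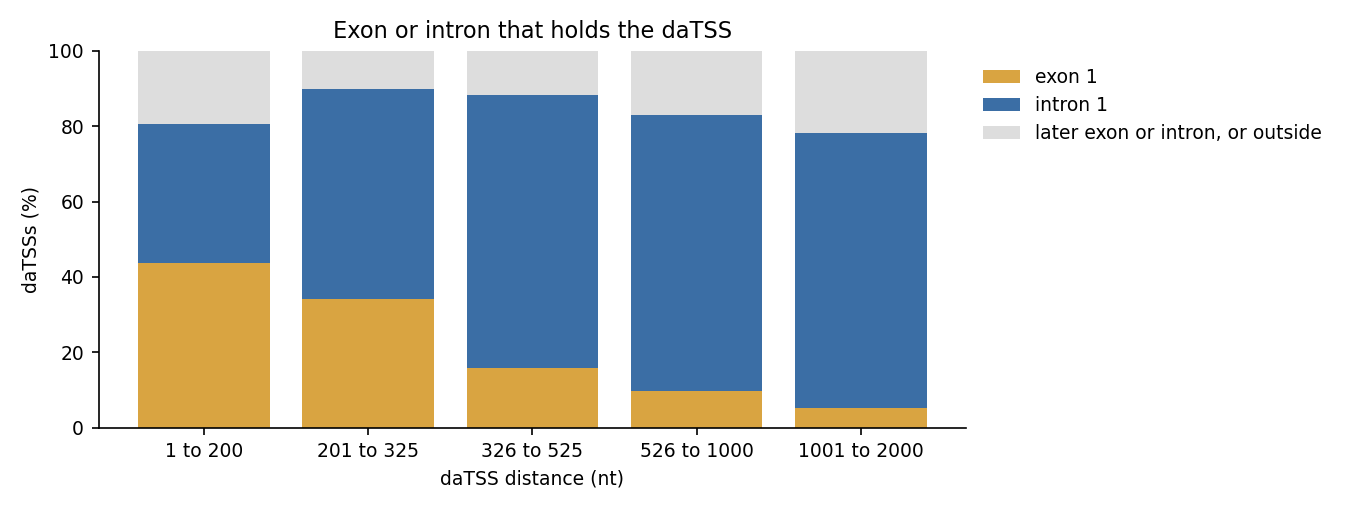
Percent of daTSSs (vertical axis) in exon 1, in intron 1, or in a later feature or outside the transcript, by distance class (horizontal axis, nts). In the second distance peak, exon 1 holds 15.9% and intron 1 72.5%.

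Numbered along this same nearest-starting transcript, coding where available, 549 daTSSs lay in intron 1 (72.5%) and 120 in exon 1 (15.9%). Intron 2 held 33 and exon 2 held 18. A handful lay in intron 3 (3), exon 3 (2) and intron 6 (1), and 31 lay outside the transcript. Of those in exons, 96 fell in coding sequence, 41 in the 5′ UTR and 2 in the 3′ UTR, and 1 in exon 1 of the lncRNA gene MIR1915HG, which has no annotated coding sequence. Exon 1 ended a median of 163 nts downstream of the gene TSS (quartiles 77.0 and 339), and the daTSS lay a median of 245 nts beyond that end. The daTSS was past the end of exon 1 at 80.1% of these gene TSSs, compared with 58.9% in the first distance peak and 88.1% in the farther class. Within 50 nts of that end lay 57 (7.53%, interval 5.75% to 9.65%), close to the 9.19% of all daTSSs and 9.76% of the other daTSSs. By class the share was 22.8% within 200 nts, 23.3% in the first distance peak, 3.17% in the farther class and 1.12% in the distant class.

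Individual genes show both arrangements. The daTSSs of COX8A, TUBA1C, ATP5F1E and SYNGR2 lay in intron 1 and outside every annotated exon. Those of RPS24, P4HB and SSR2 lay in intron 1 of the numbered transcript and in an exon of another. At RPL35 and RPL29 the daTSS lay in exon 2, in coding sequence. The ESR2 daTSS lay in the 5′ UTR of exon 1, which extends 571 nts from the gene TSS. The GAPDH daTSS lay outside the annotated transcripts of the gene, whose gene TSS was called upstream of the coding transcript used for numbering. Median FPKM was 20.3 for daTSSs in introns and 20.1 for those in exons.

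A pyrimidine followed by a purine at positions -1 and +1 was found at 513 of the 757 daTSSs (67.8%, interval 64.3% to 71.1%), compared with 66.7% of the other daTSSs and 66.9% of all. Over all 151400 positions of the same windows, read on the antisense strand, 21.4% had this pair. The daTSSs of the second distance peak thus sit on an initiation dinucleotide more often than the surrounding positions do. CA was the commonest pair with 303 daTSSs (40.0%), followed by CG with 78 and by TA and TG with 66 each.

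The initiator-like core, CANA or CANT with C at -1, occurred at 197 daTSSs (26.0%, interval 22.9% to 29.3%). It occurred at 25.3% of the other daTSSs, at 25.5% of all and at 2.65% of positions of the same windows. By class the share was 22.1% within 200 nts, 19.6% in the first distance peak, 27.0% in the farther class and 29.9% in the distant class. The interval of the second distance peak overlaps those of its neighbours. TATAA or TATAT, the core of the TATA box, started between -35 and -24 at 4 daTSSs (0.53%), compared with 1.41% of the other daTSSs, 1.18% of all and 0.402% of window positions. By class the TATA-box share was 0% within 200 nts, 0.66% in the first distance peak, 1.53% in the farther class and 2.90% in the distant class. The GC-box core bound by SP1, GGGCGG or CCGCCC, lay within the 50 nts upstream at 128 daTSSs (16.9%), compared with 14.0% of the other daTSSs, 14.7% of all and 12.9% of window positions. This share fell with distance, from 22.1% within 200 nts and 18.2% in the first distance peak to 11.3% in the farther class and 9.82% in the distant class. A match of these letters is a description and does not show that a factor is bound.

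GC content differed between the sides of the daTSS. Averaged over the 500 nts downstream in the direction of antisense transcription, which is the side facing the gene TSS, it was 67.5%, and over the 500 nts upstream it was 54.0%. The corresponding means at the other daTSSs were 63.5% and 54.2%. Over all positions in the windows of the second distance peak they were 67.2% and 53.9%, close to those at the called daTSSs. GC content was higher on the downstream side at 90.8% of the daTSSs of the second distance peak (interval 88.5% to 92.7%), compared with 80.7% of the other daTSSs, 80.4% in the first distance peak and 88.3% in the farther class. The same inequality held at 90.5% of all positions in the windows of these gene TSSs and at 86.2% of positions in the same window at gene TSSs without a daTSS.

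The gene TSS lay in a computed CpG island at 649 of the 757 (85.7%, interval 83.0% to 88.1%), compared with 84.1% at the other daTSSs. The downstream edge of that island was a median of 504 nts from the gene TSS (quartiles 336 and 658), and the daTSS was a median of 72 nts inside the edge (position -72.0, quartiles -238 and 71.0). It lay inside the island at 65.8% and within 250 nts of the downstream edge at 442 (68.1%, interval 64.4% to 71.7%), compared with 48.4% of the other daTSSs and 53.5% of all daTSSs in islands. By class the share was 37.4% within 200 nts, 60.2% in the first distance peak, 54.7% in the farther class and 28.5% in the distant class. Of the 5 classes the second distance peak had the highest share, and the interval of the first distance peak (55.1% to 65.1%) overlaps its own. This measure is computed from the same distance that chose the daTSSs. The order of the classes is therefore not independent of that choice and is given as a description only.

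Averaged over all positions of the distance range at these same gene TSSs, 67.2% were within 250 nts of the edge, close to the share at the called daTSSs. At gene TSSs without a daTSS, 57.9% of such positions were, and the median edge was 459 nts from the gene TSS. By class, the median edge was at 479.5 nts for daTSSs within 200 nts, 444.5 nts in the first distance peak, 618.5 nts in the farther class and 797.5 nts in the distant class.

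An annotated transcript started within 100 nts of the daTSS on its own strand in 46 of the 757 cases (6.08%, interval 4.48% to 8.02%), compared with 4.59% of the other daTSSs and 4.97% of all. Of these transcripts, 36 were lncRNAs and 10 belonged to protein-coding genes. Among the 101 such cases at the other daTSSs, 69 were lncRNAs and 27 belonged to protein-coding genes, so lncRNAs prevailed there too. The authors had removed daTSSs close to same-strand TSSs of an earlier RefSeq annotation, and the starts counted here come from a later annotation. At CBR3, a carbonyl reductase gene, the daTSS 480 nts downstream coincides with the start of the lncRNA CBR3-AS1. At SVIP (422 nts) it coincides with the start of ENSG00000246225, and at ZSCAN31 (490 nts) with that of ENSG00000289467. Protein-coding partners, named after their values were seen, were STPG1, which starts 2 nts from the daTSS of NIPAL3, USP45, 2 nts from that of TSTD3, and IFT46, 13 nts from that of ARCN1.

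Gene groups were counted by lists, without a test, against 757 of 2956 daTSSs (25.6%). Of the 92 gene TSSs of genes for oxidative phosphorylation, 19 had a daTSS and 14 of those lay in the second distance peak (73.7%). The 14 include subunits of complex I (NDUFS5, NDUFAB1, NDUFB4, NDUFB8, NDUFA10), of complex III (UQCRC2), of cytochrome c oxidase (COX8A) and of the ATP synthase (ATP5F1E), its inhibitor ATP5IF1, and the assembly factors COX14, COX16, COX18 and NDUFAF4. Their distances ranged from 332 nts at NDUFB4 to 505 nts at NDUFA10. The FPKM was 291 at NDUFS5, 289 at UQCRC2, 257 at NDUFAB1, 210 at NDUFB4 and 209 at NDUFB8, but 4.26 at NDUFAF4 and 4.65 at COX18. A uaTSS was called at 10 of the 14, beside a share of 65.0% over all gene TSSs of the second distance peak. The other 5 daTSSs of the list lay at 33 nts (COX20), 116 nts (NDUFA4), 715 nts (ATP5F1D), 749 nts (ATP5MC3) and 1032 nts (NDUFAF2).

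Of the 22 daTSSs at ribosomal protein genes, 9 lay in the second distance peak (40.9%), at RPS24, RPL35, RPL29, RPL41, RPL6, RPSA, RPL22L1, RPL10 and RPL7L1. RPL41 had an FPKM of 226 (456 nts), RPL6 117 (393 nts), RPSA 58.3 (369 nts), RPL22L1 50.4 (432 nts), RPL10 26.3 (479 nts) and RPL7L1 24.7 (356 nts). FPKM values of ribosomal protein genes, RPS24, RPL35 and RPL29 included, call for caution because these genes have near-identical processed copies. The effect of such copies on the values was not tested. Solute carriers, transporters of small molecules, had 20 of 56 daTSSs in the second distance peak (35.7%), and zinc finger genes 32 of 126 (25.4%). The zinc finger genes had a median FPKM of 4.55, the solute carriers one of 17.6.

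Smaller counts came from the remaining lists. Of the daTSSs at genes for the RNA polymerase II machinery, 4 of 19 were included, at the mediator subunit genes MED13L (422 nts, FPKM 59.9), MED10 (398 nts, 53.7) and MED15 (365 nts, 22.0) and at CDK7 (349 nts, 38.6), the kinase of TFIIH. All 4 had a uaTSS. Over the whole second distance peak the share with a uaTSS was 65.0%, the background for the uaTSS counts that follow as well. Of 16 daTSSs at chromatin remodeller genes, 2 were included, at the acetyltransferase gene KAT7 (352 nts, FPKM 30.5) and the deacetylase gene HDAC7 (508 nts, 12.3), both with a uaTSS. Of 11 at luminal and hormone receptor genes, 2 were included, at ERBB2 (498 nts, 124) and NR3C1 (327 nts, 5.43), neither with a uaTSS. NR3C1 is the human glucocorticoid receptor gene, and whether reads of the rat receptor transgene entered its FPKM was not tested. Splicing and RNA-binding genes had 6 of 21, mitochondrial ribosomal proteins 5 of 20, translation factors 4 of 25, cell cycle genes 3 of 12, proteasome subunits 2 of 11, chaperones 2 of 8, histone genes 2 of 25 and RAB GTPases 1 of 12.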

How the data were processed

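Start-seq TSS calls were made by the authors from reads of quality 20 or more, trimmed with cutadapt 1.2.1, aligned to hg19 with Bowtie 0.12.8 and called at a threshold of 5 reads. The deposited calls are single positions whose score is 0 throughout, so depth is unknown. The deposited FPKM values were made by the authors from de-duplicated, merged alignments (TopHat2 2.0.4, Picard 1.118, Cufflinks 2.2.1). The FPKM table had 0 columns of unmatched samples.

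Calls were joined by identifier, and daTSSs 326 to 525 nts downstream were selected. The other classes were 1 to 200, 201 to 325, 526 to 1000 and 1001 to 2000 nts. Each gene TSS received the nearest transcript start of a protein-coding gene, or failing that of any gene, within 1000 nts on its strand (GENCODE lifted to GRCh37, whose chromosomes match hg19), and FPKM was joined by symbol for 10310 of 10391 gene TSSs, and of the selected daTSS genes VARS1 was left without one. Medians on the log2 scale used a pseudocount of 0.1. Segments longer than 200 nts with 50% GC or more and a CpG ratio, observed against expected, over 0.6 were taken as CpG islands. Functions were tested on simulated data. Python 3.11.15, numpy 2.4.6, scipy 1.17.1, pandas 2.3.3 and matplotlib 3.10.9 were used.

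The daTSSs and gene lists were chosen with earlier results of these data known. Named genes are the 12 highest and 3 lowest FPKM above 0, the limits of the distance range, up to 8 per list for 4 lists, and the 3 nearest an annotated antisense start. Other names were added after values were seen. Sequences are of the 8 highest FPKM and those 3, shortened to 30 nts where a UTR would be included. Of these sequences and of the listed genes, 1 each is not reported here. Not analysed here were the FAIRE-seq and MNase-seq libraries and replicate 2 of Start-seq.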

Additional observations from a re-analysis of the deposited data

How the results depend on the processing

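Alternative settings gave 60 values, since most settings bear on several results. Of these values, 48 were counted as unchanged, 11 moved beyond the interval of the main value and 1 turned its direction. Unchanged values stayed inside the interval of the main value, except for the difference in median log2(FPKM + 0.1). No interval is given for that difference, and its unchanged values kept their direction. The 48 include values that a setting could not change, such as those of the second distance peak when only the other daTSSs were restricted. The difference in median log2(FPKM + 0.1) between the second distance peak and the other daTSSs turned to -0.024 at gene TSSs without a uaTSS. There, median FPKM was 13.0 and 13.2, and with a uaTSS it was 24.0 and 20.4. With the nearest-starting transcript only, coding where available, intron shares were 77.4% and 70.3%. With other daTSSs up to 1000 nts only, their intron share was 55.2%. The share with CA alone was 40.0%, and with a longer consensus that also excludes A from the flanking bases it was 16.1%. Within 100 nts of the island edge lay 33.3%, and an annotated antisense start within 500 nts was found at 14.0%. The sequence, island and antisense-start settings widen or narrow the criterion itself. The others change the transcript read, the comparison group or, for the split by uaTSS, the genes compared, and the cause of that last change was not tested. Shares and median FPKM stayed inside their intervals with ranges narrower or wider by 25 nts at each limit. They also did so with a single gene TSS per symbol, no other gene TSS within 5000 nts or a minimum FPKM of 1. With these settings and a pseudocount of 1, the difference in median log2 FPKM lay between 0.158 and 0.227, compared with 0.19. Joining by position changed 0 daTSSs. No paired analysis was possible because only 1 library of calls and 1 merged FPKM column were used.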

Other observations

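In the 1000 nts that follow the daTSS on the antisense strand, a window chosen after seeing the data, the polyadenylation signal AATAAA occurred at 142 of the 757 daTSSs of the second distance peak (18.8%) and at 22.4% of the other daTSSs. On the sense strand of the same windows it occurred at 22.7% and 19.7%. GTAAGT or GTGAGT, which match the 5′ splice site, occurred on the antisense strand at 117 (15.5%) and at 17.6% of the other daTSSs. On the sense strand they occurred at 305 (40.3%) and at 36.8%. The end of exon 1 on the sense strand lies upstream of the daTSS, and so may fall in the window, at 80.1% of these gene TSSs. The window runs past the gene TSS in the second distance peak but stops short of it in the distant class. The shares therefore cover unlike stretches. GC content over the first 500 nts also differs, at 67.5% against 63.5% at the other daTSSs. Its bearing on these shares was not tested.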
